A study of Mus musculus with 6 samples.

Results

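The genes described here encode the chains of the collagens, measured by bulk RNA sequencing in smooth muscle cells sorted from the vasculature of mouse skeletal muscle. They were chosen by symbol: protein-coding genes named Col, a number, a and a number, which gave 42 of the 32179 genes in the deposited table. Of these, 37 had a mean of at least 10 over the 6 libraries and were tested: 9 fibrillar collagen genes, 8 basement membrane collagen genes and 20 others. The 3 iSM-G5C-KO libraries came from tamoxifen-induced mice in which a floxed Gprc5c, the gene of an orphan G protein-coupled receptor, was targeted in smooth muscle. The 3 control libraries came from mice given tamoxifen as well, whose genotype label is wild type although their source label says Gprc5c-floxed. All mice were male C57BL6J of 8 to 24 weeks and carried the mTmG reporter, which turns on EGFP where Cre has acted. EGFP-positive cells were sorted after depletion of cells with CD31, CD45 or Ter119, the surface proteins of endothelial, white and red blood cells. The labels name the Cre line no further than the letters iSM. They do not say that libraries were separate animals, and p-values therefore measure a spread between libraries that may be technical.

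Collagens are triple helices of chains with glycine at the third place of each repeat. Chains are hydroxylated and folded in the endoplasmic reticulum, exported as procollagen, trimmed and crosslinked outside the cell. Fibrillar collagens form the cables that bear load in the vessel wall, type IV collagen forms the sheet of the basement membrane around each smooth muscle cell, and other types bind fibrils, form beaded filaments or stay in the membrane.

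Deposited values are read counts divided by a factor for each library and rounded, here called normalised counts. An estimated 1481186 to 2581454 reads lay behind the KO libraries and 1556750 to 2935114 behind the controls, deepest in the libraries numbered 1 and shallowest in those numbered 3. Control 3 stood apart, with 29707 genes above 0 against 20481 to 21179 in the other 5 libraries. Gprc5c, the targeted gene (ENSMUSG00000051043, chr11:114851173-114872617, plus strand, GRCm38), had normalised counts of 328, 305 and 360 in KO libraries 1, 2 and 3, against 428, 532 and 497 in control libraries 1, 2 and 3. The groups did not overlap, and the log2 fold change was -0.55 ± 0.13 (standard error, SE; limma, unadjusted p = 0.00323, adjusted p = 0.9987). The labels do not say which part of the gene was deleted, so reads over the whole gene check them only in part. Smooth muscle markers were plentiful in every library, with summed normalised counts of 15920, 13074 and 14493 in KO libraries and 15560, 15832 and 15354 in controls for the 12 genes of the list.

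Chains of type IV collagen are encoded by genes that lie head to head in pairs, and the chains of each pair were measured together in these cells. Col4a1 and Col4a2, which encode the chains of the common type IV network, overlap by 22 bases at their starts. They lie on chr8:11198423-11312826, minus strand, and chr8:11312805-11449287, plus strand, in GRCm38. Col4a4 (chr1:82448423-82586849, minus strand) and Col4a3 (chr1:82586976-82722059, plus strand) are 126 bases apart, and Col4a6 (chrX:141165403-141474076, minus strand) and Col4a5 (chrX:141475385-141689234, plus strand) are 1308 bases apart. Windows at the gene starts are shown for their sequence, and the part of these sequences in the values was not tested. Each runs 5′ to 3′ on the strand of the named gene, from 250 bases before its RefSeq start to 50 after it, in GRCm38.p6. Capitals mark a GC box (GGGCGG or CCGCCC) or a CCAAT box (CCAAT or ATTGG). Those of Col4a1 (chr8:11312777-11313076, minus strand) and Col4a4 (chr1:82586800-82587099, minus strand) each hold the start of their partner too, while Col4a6 (chrX:141474027-141474326, minus strand) and Col4a5 (chrX:141475169-141475468, plus strand) have separate windows.
Col4a1: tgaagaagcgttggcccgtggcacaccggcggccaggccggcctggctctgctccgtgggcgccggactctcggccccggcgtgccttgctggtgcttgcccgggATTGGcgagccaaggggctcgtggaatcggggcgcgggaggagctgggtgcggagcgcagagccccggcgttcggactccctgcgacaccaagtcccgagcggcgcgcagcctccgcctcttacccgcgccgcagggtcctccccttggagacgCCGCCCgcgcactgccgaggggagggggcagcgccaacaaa
Col4a4: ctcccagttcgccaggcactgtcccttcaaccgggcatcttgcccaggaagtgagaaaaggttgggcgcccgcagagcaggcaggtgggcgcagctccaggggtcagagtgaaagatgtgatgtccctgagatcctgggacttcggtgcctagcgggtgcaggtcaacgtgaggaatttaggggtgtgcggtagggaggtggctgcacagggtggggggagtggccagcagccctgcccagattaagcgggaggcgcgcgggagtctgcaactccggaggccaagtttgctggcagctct
Col4a6: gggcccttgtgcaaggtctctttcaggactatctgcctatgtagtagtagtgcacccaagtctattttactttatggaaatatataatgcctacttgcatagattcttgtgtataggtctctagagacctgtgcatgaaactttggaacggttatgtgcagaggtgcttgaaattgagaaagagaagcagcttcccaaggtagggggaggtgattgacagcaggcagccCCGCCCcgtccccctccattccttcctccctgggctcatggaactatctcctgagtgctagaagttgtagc
Col4a5: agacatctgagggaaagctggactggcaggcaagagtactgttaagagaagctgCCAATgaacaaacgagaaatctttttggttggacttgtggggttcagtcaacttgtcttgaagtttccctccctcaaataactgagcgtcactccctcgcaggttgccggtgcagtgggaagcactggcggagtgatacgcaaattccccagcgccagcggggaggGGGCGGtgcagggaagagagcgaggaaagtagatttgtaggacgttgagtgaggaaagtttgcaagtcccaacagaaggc

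The windows differed in base composition, with a G or C at 74.0% of the bases of the Col4a1 window, 63.3% of Col4a4, 48.3% of Col4a6 and 52.7% of Col4a5. The Col4a1 and Col4a5 windows each held 1 GC box and 1 CCAAT box, the Col4a6 window held 1 GC box, and the Col4a4 window held neither. A RefSeq window was matched by symbol for 33 of the 42 collagen genes, 30 of them tested. Over both strands, 19 of these 30 (63.3%) held a GC box, against 35.7% of all 32851 windows. For the CCAAT box it was 10 of 30 (33.3%) against 37.4%, and for TATAAA or TTTATA 2 of 30 (6.67%) against 13.6%. The 32851 windows were not limited to tested genes or to 1 window per gene, so these shares compare unlike sets. No motif contains another, and a match is a description of the sequence only.

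Collagen messages were among the most plentiful of these cells. Per kilobase of merged exon in protein-coding transcripts, Col4a1 had the highest mean normalised count, 458, followed by Col3a1 at 457, Col4a2 at 402, Col1a1 at 388 and Col1a2 at 345. Then came the type VI genes Col6a1 at 331, Col6a3 at 292 and Col6a2 at 232. Among 11715 protein-coding genes tested, Col4a1 ranked 11, Col3a1 ranked 12 and Col4a2 ranked 21, and 7 collagen genes were among the 100 highest. A further 5 genes of the fibrillar and basement membrane classes lay between 142 and 216 per kilobase: Col5a3, Col18a1, Col15a1, Col5a2 and Col5a1. Next came Col4a5 at 75.8 and Col16a1 at 66.9, and the lowest tested member was Col24a1 at 1.75 per kilobase. The upper end of the scale was compressed in these libraries: the highest gene had 672 per kilobase, 2.65 times the gene ranked 100, and the median protein-coding gene had 30.4.

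No collagen gene passed the test between KO and control. Of the 37 tested, 0 had an adjusted p under 0.05, against 0 of all 12735 genes (0.0%), and with the replicate number as a block it was 0 of 37 against 1 of all genes (0.00785%). At an unadjusted p under 0.05 limma found 2 collagen genes, both lower in KO, which is 5.41% against 1.81% of all genes in either direction. Lower in KO at that level were 0.777% of all genes and higher were 1.03%. With the block limma found 8 collagen genes, or 21.6%, against 10.2% of all genes. Of these 7 were lower in KO (18.9% against 5.96%) and 1 was higher (2.7% against 4.29%). Col9a1 and Col24a1 reached the filter on low values only through their controls, with means of 2.3 and 9.7 in KO against 18.0 and 15.3 in controls. Among the other 35 members limma found 1 at an unadjusted p under 0.05 (2.86%), and 7 with the block (20.0%), of which 6 were lower in KO. Values of the groups did not overlap for 2 of 37 members (5.41%), against 4.91% of all genes. Means of log2(value + 1) were higher in KO for 20 members and lower for 17, or 54.1% and 45.9%, against 50.2% and 49.8% of all genes. Counts of genes with a higher or lower mean in KO, here and below, are of these log2 means. The median log2 fold change of the 37 was 0.02, that of the 35 was 0.03, and that of all genes tested was 0.00. Fewer cells of a kind and less RNA per cell cannot be told apart in such bulk samples.

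**Figure D1:**
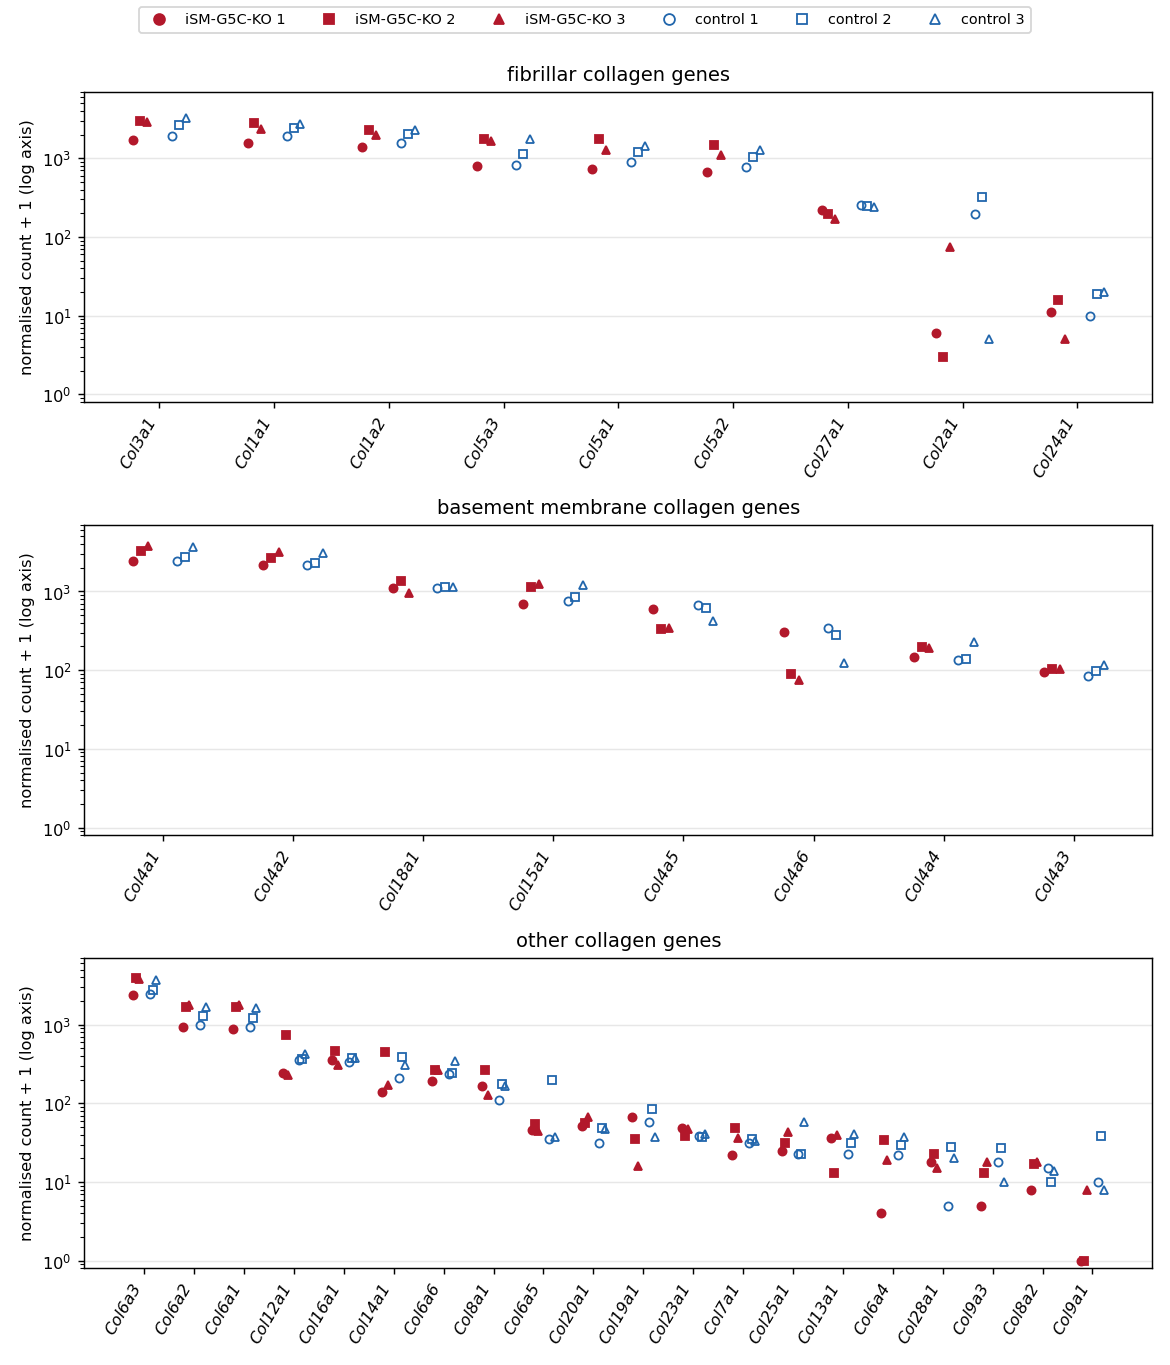
Normalised count plus 1 on a log axis for the 37 tested collagen genes in the 3 iSM-G5C-KO libraries (filled) and the 3 control libraries (open), 1 point per library, in panels for fibrillar, basement membrane and other collagens. For most genes the groups overlap; the KO points of Col27a1 all lie below its control points and those of Col20a1 all lie above.

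No fibrillar collagen gene passed the test, and the 6 abundant ones had log2 fold changes from -0.09 to 0.17. Their confidence intervals were wide and also held larger changes, at the widest -0.69 to 1.03 for Col5a3 (95%). Col3a1, the chain of the type III fibrils of compliant vessels, had normalised counts of 1695, 2932 and 2857 in KO libraries 1, 2 and 3, against 1933, 2629 and 3214 in controls 1, 2 and 3. Its groups overlapped, at a log2 fold change of -0.07 ± 0.27 (SE). Col1a1 and Col1a2 encode the chains of type I collagen, the main load-bearing fibril. Col1a1 had 1559, 2839 and 2358 in KO against 1890, 2434 and 2731 in controls, and Col1a2 had 1369, 2253 and 1970 in KO against 1554, 2035 and 2255 in controls. Both genes were lowest in KO 1 and next lowest in control 1. Their log2 fold changes were -0.09 and -0.08, with 95% confidence intervals of -0.66 to 0.49 and -0.60 to 0.45. With the replicate block the intervals were narrower, -0.31 to 0.13 and -0.27 to 0.11, and 0 lay inside each of them. The type V chains, which start and narrow fibrils, had log2 fold changes of 0.02 for Col5a1, 0.03 for Col5a2 and 0.17 for Col5a3, with standard errors of 0.32, 0.30 and 0.37. In the class as a whole 3 genes had a higher and 6 a lower mean in KO, with a median log2 fold change of -0.08. Without Col24a1 it was 3 and 5, with a median of -0.07.

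Col27a1, a fibrillar collagen known from cartilage, was the tested member whose values separated the groups downward (chr4:63215435-63334991, plus strand, GRCm38). It had normalised counts of 219, 197 and 167 in KO libraries 1, 2 and 3, against 254, 247 and 239 in controls 1, 2 and 3. Every KO library lay below every control, as for 282 of all genes tested (2.21%). Mean normalised counts were 194.3 ± 26.1 in KO and 246.7 ± 7.5 in controls (SD, n = 3 each). The log2 fold change was -0.35 ± 0.13 (SE), at an unadjusted limma p of 0.0312 and an adjusted p of 0.9987. With the block the unadjusted limma p was 0.00679 and the adjusted p 0.275, so it did not pass either way. Without control 3, the library that stood apart, the log2 fold change was -0.37, and without KO 3 it was -0.25. Col24a1, its nearest relative among the members, was too low to place, with 10, 15 and 4 in KO and 9, 18 and 19 in controls.

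Among the basement membrane collagens 6 genes had a higher and 2 a lower mean in KO, with a median log2 fold change of 0.06. Col4a1 had normalised counts of 2435, 3239 and 3734 in KO libraries 1, 2 and 3, against 2408, 2776 and 3693 in controls 1, 2 and 3. Col4a2 had 2154, 2686 and 3166 in KO, against 2161, 2333 and 3042 in controls. In both groups these genes were lowest in library 1 and highest in library 3. The spread among libraries of a group was several times the difference between groups, which was 0.08 for Col4a1 and 0.09 for Col4a2 on the log2 scale, with standard errors of 0.22 and 0.20. Their ratio held nearly still: Col4a1 over Col4a2 was 1.13, 1.21 and 1.18 in KO libraries and 1.11, 1.19 and 1.21 in controls. Col18a1, whose protein is cut to release endostatin, had 1103, 1377 and 961 in KO against 1100, 1153 and 1124 in controls. Its log2 fold change of 0.01 had a 95% confidence interval of -0.34 to 0.37. Col15a1, the related multiplexin of the outer basement membrane, had a log2 fold change of 0.13 ± 0.26 (SE).

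Col4a5 and Col4a6 were the type IV genes with a lower mean in KO. Their chains join in a separate type IV network that is known from the basement membranes of smooth muscle. Col4a5 had normalised counts of 597, 330 and 338 in KO libraries 1, 2 and 3, against 674, 617 and 417 in controls 1, 2 and 3. Col4a6 had 304, 88 and 74 in KO, against 338, 282 and 121 in controls. KO was below its same-numbered control at every number for both genes, but KO 1 lay above control 3, so the groups overlapped. KO was lower at every number for 3 of the 37 tested members (8.11%), against 1963 of all genes tested (15.4%). Same-numbered differences in log2(value + 1) were -0.17, -0.90 and -0.30 for Col4a5 and -0.15, -1.67 and -0.70 for Col4a6. Log2 fold changes were -0.46 ± 0.27 (SE) and -0.84 ± 0.58 (SE), at unadjusted limma p of 0.134 and 0.187. With the block the standard errors were 0.13 and 0.23, the unadjusted limma p 0.00709 and 0.00625, and the adjusted p 0.277 and 0.273, none of which passed. Within a library the gap to the common network moved as well: Col4a5 over Col4a1 was 0.245, 0.102 and 0.0905 in KO libraries and 0.28, 0.222 and 0.113 in controls. Col4a5 over Col4a6 was 1.96, 3.75 and 4.57 in KO libraries and 1.99, 2.19 and 3.45 in controls, with the higher ratios where both genes were low. Without control 3 the log2 fold changes were -0.67 for Col4a5 and -1.29 for Col4a6, and without control 1 they were -0.32 and -0.55. In the blocked fit without number 2, where the differences were largest, they were -0.24 and -0.43.

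**Figure D2:**
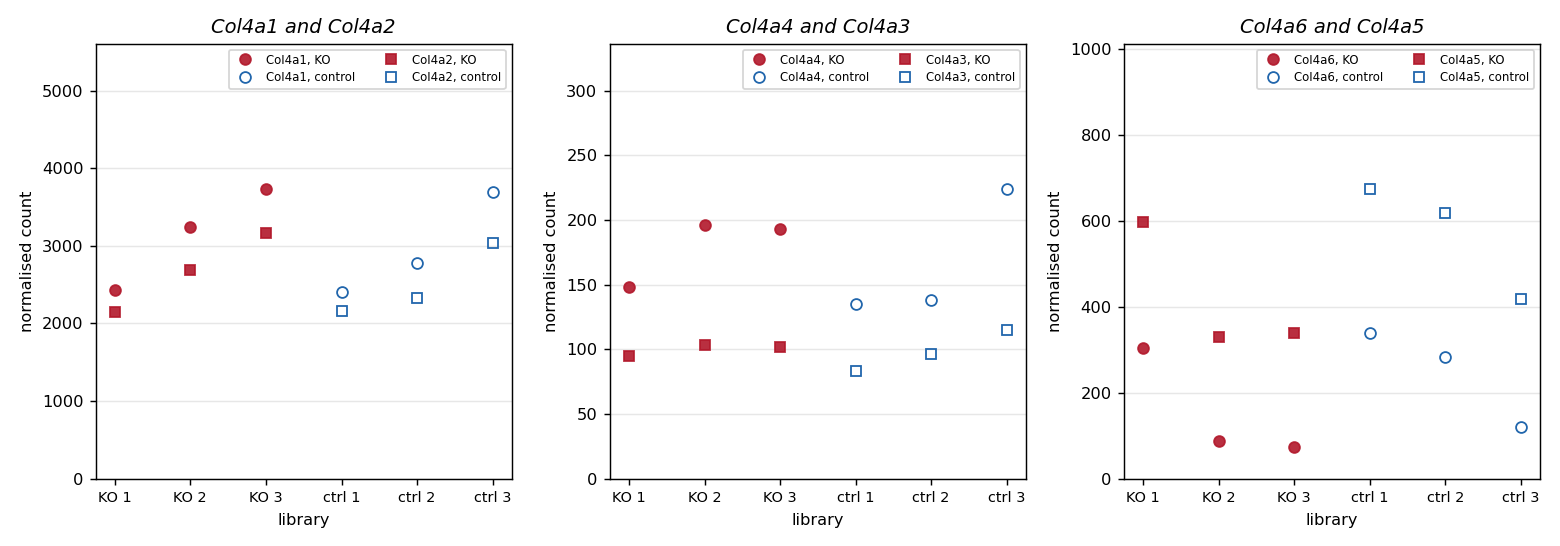
Normalised count by library for the type IV collagen genes in their head-to-head pairs, with iSM-G5C-KO libraries (filled) left of control libraries (open), circles for the minus-strand gene and squares for the plus-strand gene. Col4a1 and Col4a2 keep a near-constant ratio, while Col4a6 and Col4a5 are lower in each KO library than in the control of the same number, and KO 1 overlaps the controls.

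The third pair encodes chains known above all from the kidney filter. Col4a4 had 148, 196 and 193 in KO libraries against 135, 138 and 224 in controls, and Col4a3 had 95, 103 and 102 in KO against 83, 96 and 115 in controls. Both overlapped between groups, with log2 fold changes of 0.14 and 0.04 and standard errors of 0.22 and 0.16. Part of the Col4a3 reads could belong to a noncoding gene on the other strand that shares 563 of its exon bases, since the labels do not say whether counting used strand.

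Type VI collagen, the beaded filament next to the basement membrane, was the most abundant of the other types. Col6a3 had normalised counts of 2402, 3943 and 3791 in KO libraries 1, 2 and 3, against 2451, 2763 and 3645 in controls 1, 2 and 3. Col6a2 had 922, 1701 and 1758 in KO against 999, 1271 and 1702 in controls, and Col6a1 had 876, 1677 and 1772 in KO against 946, 1233 and 1628 in controls. These 3 genes, whose chains assemble with each other, ran roughly in parallel from library to library, though Col6a3 was highest in KO 2 and the others in KO 3. Col6a3 over Col6a1 was 2.74, 2.35 and 2.14 in KO libraries and 2.59, 2.24 and 2.24 in controls. Col6a1 over Col6a2 stayed between 0.95 and 1.01 in KO libraries and between 0.947 and 0.97 in controls. Log2 fold changes were 0.18 for Col6a3, 0.12 for Col6a2 and 0.15 for Col6a1, with standard errors of 0.24, 0.29 and 0.31. Col6a3 came to 0.05 without KO 2 and 0.41 without KO 1. The later-found chains Col6a4, Col6a5 and Col6a6, which can take the place of the Col6a3 chain, were lower in level per kilobase. Col6a4 had 3, 33 and 18 in KO against 21, 29 and 36 in controls, at an unadjusted limma p of 0.0444 with the block and an adjusted p of 0.469. Col6a5 ran from 34 to 197 within the controls alone, with control 2 the highest library, and Col6a6 had a log2 fold change of -0.18 ± 0.20 (SE).

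Fibril-associated collagens with interrupted helices (FACITs) sit on the surface of fibrils. Of the 7 tested, 5 had a lower mean of log2(value + 1) in KO, with a median log2 fold change of -0.41. Without Col9a1 it was 4 of 6, with a median of -0.28. Col14a1 had normalised counts of 137, 451 and 171 in KO libraries 1, 2 and 3, against 208, 391 and 309 in controls 1, 2 and 3. KO 2 was the highest of all libraries, and the unadjusted limma p was 0.375 without and 0.0438 with the block (adjusted p = 0.468). Col12a1, a close relative, was also highest in KO 2, with 242, 741 and 227 in KO against 352, 363 and 426 in controls. Its mean count was higher in KO, 403.3 against 380.3, while its mean of log2(value + 1) was lower. Col19a1 had 67, 34 and 15 in KO against 57, 84 and 36 in controls, a log2 fold change of -0.75 ± 0.53 (SE) that was -0.22 without KO 3 and -1.26 without KO 1. Its unadjusted limma p with the block was 0.0321 and its adjusted p 0.438. Col20a1 ran the other way, with 51, 55 and 66 in KO libraries against 30, 47 and 46 in controls. It was the only tested collagen gene with every KO library above every control, as for 343 of all genes (2.69%). The log2 fold change was 0.49 ± 0.23 (SE), at an unadjusted limma p of 0.0651 without and 0.0248 with the block (adjusted p = 0.4). Without control 3 the log2 fold change was 0.59, and without control 1 it was 0.29. Col16a1, higher per kilobase than these, had a log2 fold change of 0.04 with a 95% confidence interval of -0.34 to 0.41.

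**Figure D3:**
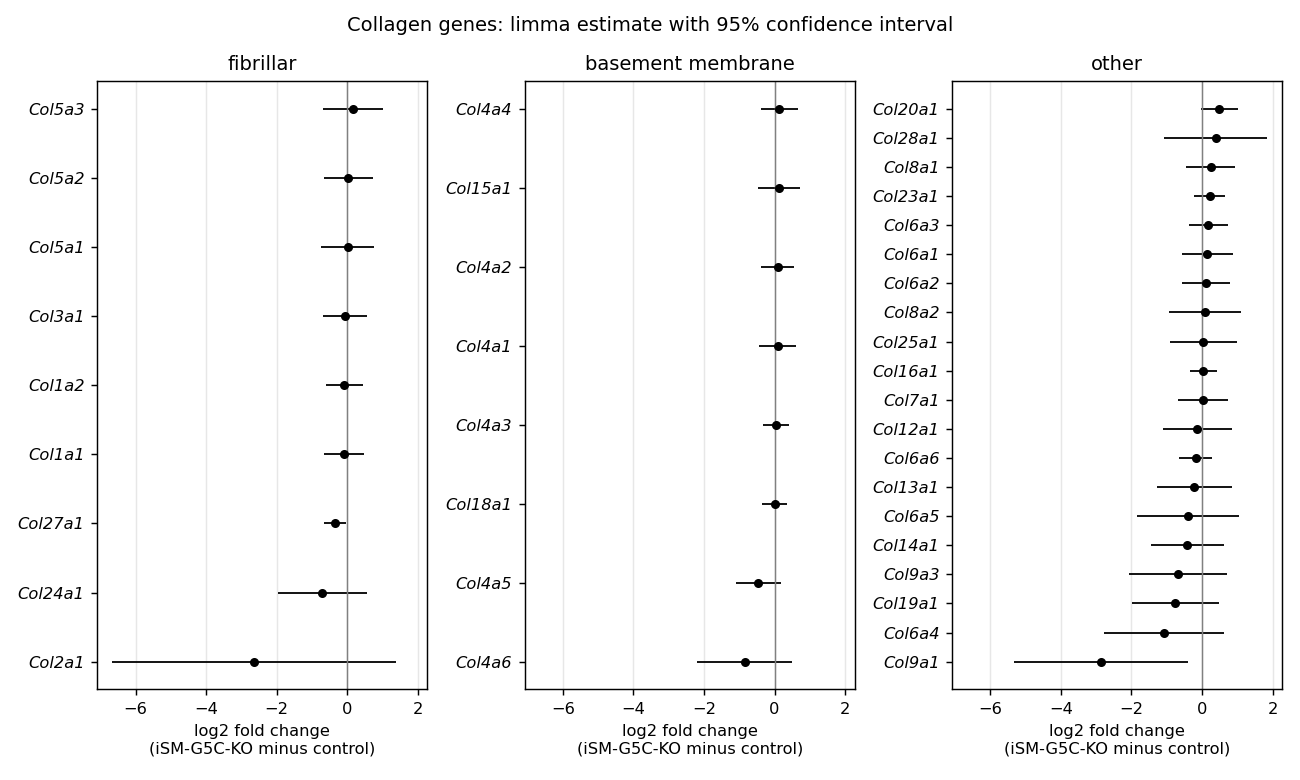
Log2 fold change, iSM-G5C-KO minus control, for each tested collagen gene in the limma fit, with bars for the 95% confidence interval. Only the intervals of Col27a1 and Col9a1 leave out 0, and intervals are widest for Col2a1 and Col9a1.

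The remaining tested members were of low level and scattered. Both type VIII genes, which form short-chain networks in vessel walls, had higher means in KO: Col8a1 had 165, 265 and 125 in KO against 109, 177 and 167 in controls, and Col8a2 stayed between 7 and 17 in all libraries. Of the membrane-spanning collagens, Col23a1 was above its same-numbered control at every number, with 48, 38 and 46 in KO against 37, 36 and 40 in controls. Col20a1 and Col4a1 were the other members with that pattern, 3 of 37 (8.11%) against 14.0% of all genes. Col13a1 and Col25a1, also membrane-spanning, had log2 fold changes of -0.21 and 0.04, with standard errors of 0.46 and 0.41. Col7a1, the anchoring fibril of skin, and Col28a1 had log2 fold changes of 0.03 and 0.38, with standard errors of 0.30 and 0.63. The 5 members not tested had means under 10: Col9a2 at 6.33 was the nearest below and Col9a1 at 10.17 the nearest above. Col22a1, Col17a1, Col26a1 and Col10a1 did not exceed 13 in any library. Col22a1 had 4, 4 and 1 in KO against 5, 5 and 13 in controls, so every KO library was below every control there too, at a few reads each.

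Cartilage collagens were present at low and uneven levels. Col2a1, the chain of the type II fibrils of cartilage, had normalised counts of 5, 2 and 73 in KO libraries 1, 2 and 3, against 197, 321 and 4 in controls 1, 2 and 3. High and low libraries occurred in both groups, and the log2 fold change of -2.63 had a standard error of 1.73 (limma, unadjusted p = 0.168). Without control 3 it was -4.52 and without KO 3 it was -4.01, against -1.87 without control 1 and -1.52 without control 2. In the blocked fit without number 2 it was -0.58. None of these fits brought Col2a1 past the threshold. Type IX collagen coats type II fibrils. Col9a1 had 0, 0 and 7 in KO against 9, 38 and 7 in controls, and passed the filter on low values only through its controls. Its log2 fold change was -2.87 ± 1.06 (SE), at an unadjusted limma p of 0.0282 and an adjusted p of 0.9987, and with the block the unadjusted limma p was 0.0171 and the adjusted p 0.36. Col9a2 had 0, 1 and 4 in KO against 8, 21 and 4 in controls, and Col9a3 had 4, 12 and 17 in KO against 17, 26 and 9 in controls. All 3 type IX genes were highest in control 2, which was also the highest for Col2a1. Of the tendon and cartilage markers, 3 of the 9 tested had a higher and 6 a lower mean in KO, with summed normalised counts of 935, 728 and 789 in KO libraries and 910, 861 and 1026 in controls. By number, 6 were higher in KO than in the control at number 1, 3 at number 2 and 0 at number 3, with median log2 differences of 0.25, -0.69 and -0.53. Sox9, the transcription factor that drives Col2a1 in cartilage, had 18, 17 and 21 in KO against 43, 35 and 46 in controls, at an unadjusted limma p of 0.00141 and an adjusted p of 0.9987. Acan, the main cartilage proteoglycan, had 42, 46 and 8 in KO against 146, 75 and 46 in controls (limma, unadjusted p = 0.0465, adjusted p = 0.9987). For Sox9 every KO library lay below every control, as for 282 of all genes tested (2.21%). The part of Sox9 and of cartilage cells in the type II and IX values was not tested.

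**Figure D4:**
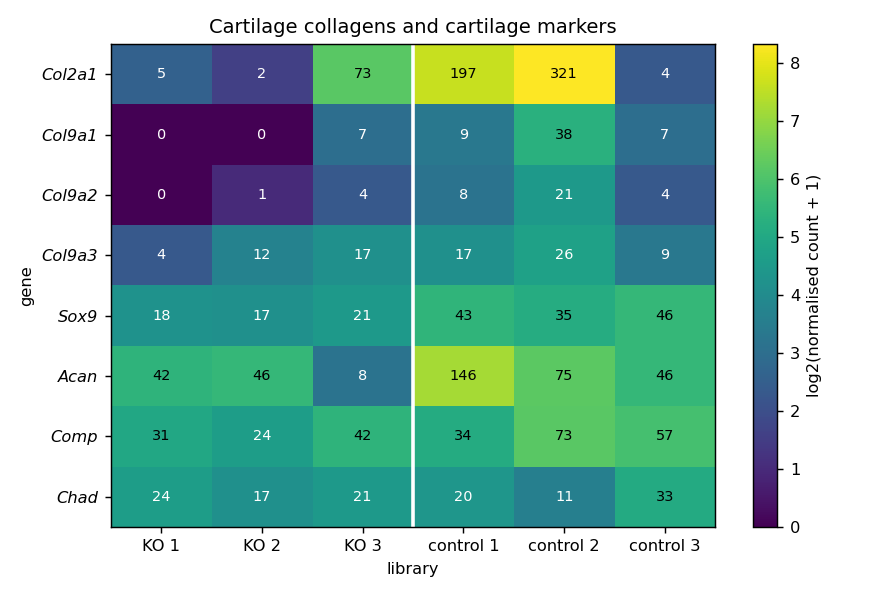
Normalised counts (numbers) of the cartilage collagen genes and of 4 cartilage markers in each library, with iSM-G5C-KO libraries left of the white line and control libraries right of it; colour is log2(normalised count + 1). The Sox9 counts of the KO libraries all lie below those of the controls. Col2a1 is high in controls 1 and 2 and in KO 3.

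Most abundant collagen genes moved together between libraries, with Col18a1, near level across the controls, an exception, and the sign of KO minus control differed with the library number. In the 13 collagen genes with at least 100 normalised counts per kilobase, KO minus control at number 1 had a median of -0.11 on the log2 scale and was above 0 in 2 of 13. At number 2 it was 0.42 and above 0 in 13 of 13, and at number 3 it was -0.09 and above 0 in 6 of 13. For all 1087 genes at that level the medians were -0.03, -0.01 and 0.08, with 440, 515 and 732 above 0. All tested collagens took 0.942%, 1.59% and 1.45% of the library total in KO libraries 1, 2 and 3, against 0.989%, 1.29% and 1.54% in controls 1, 2 and 3. Libraries numbered 1 thus held the least collagen message in both groups, and the groups overlapped. The fibrillar share was 0.329%, 0.65% and 0.554% in KO libraries and 0.376%, 0.536% and 0.625% in controls, and the basement membrane share was 0.351%, 0.451% and 0.474% in KO and 0.345%, 0.4% and 0.481% in controls.

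**Figure D5:**
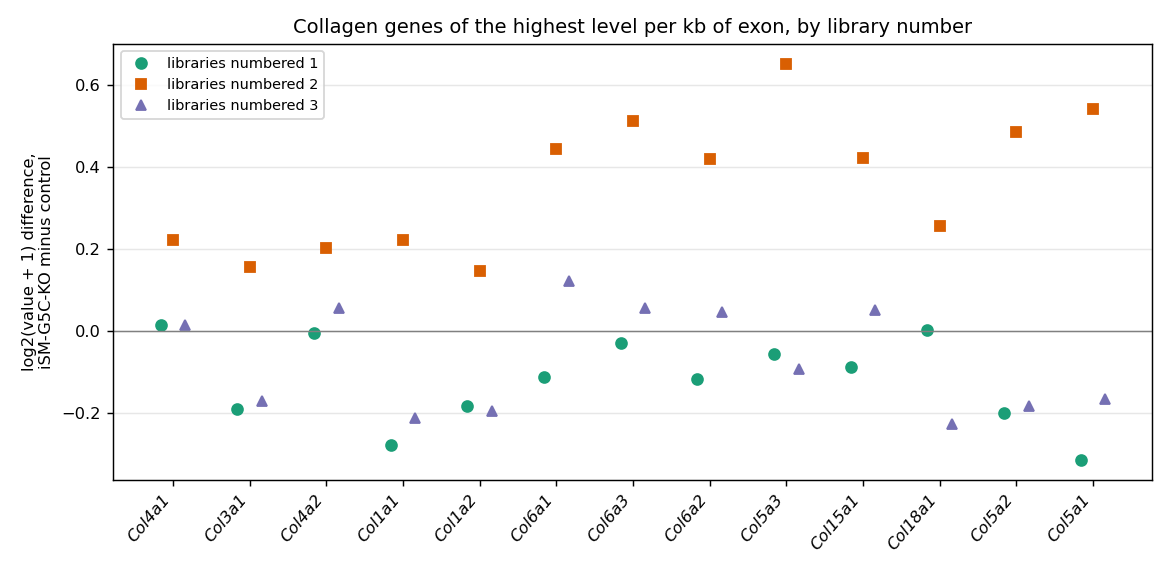
Difference in log2(normalised count + 1), iSM-G5C-KO minus the control of the same number, for the 13 collagen genes with at least 100 normalised counts per kilobase of exon. All 13 lie above 0 for the libraries numbered 2, while most lie below 0 for those numbered 1 and about as many lie above as below for those numbered 3.

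Markers of other cell types moved over the same libraries. Summed over its 16 fibroblast markers, the list had 2856, 4079 and 4644 in KO libraries 1, 2 and 3, against 3354, 4368 and 4987 in controls 1, 2 and 3, also lowest at number 1. By gene, 3 fibroblast markers had a higher and 13 a lower mean in KO. Against the control of the same number, 2 of the 16 were higher in KO at number 1, 8 at number 2 and 6 at number 3. The 15 endothelial markers summed to 1007, 1911 and 2024 in KO and 955, 1231 and 1555 in controls, and all 15 had a higher mean in KO. Against the control of the same number, 8 of them were higher in KO at number 1, 13 at number 2 and 13 at number 3. The 12 pericyte markers summed to 12374, 15673 and 20308 in KO and 11667, 13828 and 17592 in controls, all 12 with a higher mean in KO. Skeletal muscle fibre markers summed to 2460, 5083 and 9701 in KO and 1790, 2953 and 4276 in controls, 13 of 15 higher. Ttn, the titin gene, made up 660, 1638 and 5386 of these in KO and 422, 442 and 868 in controls. At number 3 only 7 of the 15 were higher in KO than in the control, at a median log2 difference of -0.06. All 12 smooth muscle markers had a lower mean in KO, at a median log2 fold change of -0.13. By number they were not uniform: 8 were higher in KO than in the control at number 1, 1 at number 2 and 3 at number 3. Median log2 differences were 0.02, -0.26 and -0.14. Pdgfra, 1 of the 13 lower fibroblast markers, had 280, 397 and 394 in KO against 347, 447 and 505 in controls. Dpp4, 1 of the 3 higher ones, had 39, 63 and 31 in KO against 24, 27 and 29 in controls. Pecam1, an endothelial marker, had 43, 70 and 99 in KO against 35, 48 and 66 in controls. The 8 tested leukocyte markers summed to 342, 116 and 532 in KO and 429, 107 and 451 in controls, lowest at number 2. Of the remaining lists, 4 of 9 Schwann cell, 3 of 5 satellite cell and 3 of 4 adipocyte markers had a higher mean in KO. The fibroblast and endothelial markers were all above the filter on low values, and the part of these cells in the collagen values was not tested. Depth moved with the numbers too. Over the 224 genes with at least 200 per kilobase, number 3 minus number 1 had a median of 0.30 in KO and 0.23 in controls on the log2 scale, against 0.66 and 0.62 for the 9 collagen genes among them. Depth and library number cannot be told apart.

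The machinery that makes, exports and reads collagen was described from lists of its genes. None of these genes had an adjusted p under 0.05 in limma with or without the block. Of 19 genes for hydroxylation, glycosylation and folding, 18 had a higher and 1 a lower mean in KO, with a median log2 fold change of 0.10. By number, 4 were higher in KO than in the control at number 1, 18 at number 2 and 17 at number 3, with medians of -0.13, 0.30 and 0.17. Crtap, part of the prolyl 3-hydroxylation complex, had 186, 234 and 214 in KO against 169, 188 and 183 in controls, a log2 fold change of 0.23 ± 0.13 (SE). Plod2, a lysyl hydroxylase that prepares crosslinks, was the exception, with 127, 158 and 85 in KO against 160, 151 and 139 in controls. Genes of export and propeptide removal split 7 higher and 7 lower, at a median of 0.01. Bmp1, a procollagen C-proteinase, had 273, 492 and 363 in KO against 275, 302 and 329 in controls, and Adamts3, a relative of the procollagen N-proteinase Adamts2, had 9, 18 and 17 in KO against 20, 16 and 24 in controls.

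Of the 7 crosslinking genes 3 had a higher and 4 a lower mean in KO, at a median log2 fold change of -0.19. Tgm2, a transglutaminase, had 967, 654 and 629 in KO against 1035, 938 and 800 in controls, and Loxl1, of the lysyl oxidase family, had 242, 291 and 223 in KO against 289, 299 and 285 in controls. The fibril-associated proteoglycans split 6 and 6, at a median of -0.02. Lum, which limits fibril width, had 116, 203 and 185 in KO against 182, 223 and 259 in controls, and Omd, a keratan sulphate proteoglycan, stayed between 5 and 14 in all libraries. Collagen receptors had 8 higher and 3 lower of 11 tested. Itga10, the collagen-binding integrin subunit best known from chondrocytes, had 88, 72 and 53 in KO against 110, 113 and 113 in controls. Its groups did not overlap, and its log2 fold change was -0.68 ± 0.20 (SE), at an unadjusted limma p of 0.00936 and an adjusted p of 0.9987. Itga1, the receptor subunit for basement membrane collagen in smooth muscle, had a log2 fold change of 0.23 ± 0.17 (SE). By mean of log2(value + 1), collagen-degrading proteases had 6 higher and 3 lower of 9 tested. Of the 3 lower, Ctsk and Mmp9 had higher mean counts in KO, 93.7 against 90.7 and 16.3 against 15.3. Mmp15, a membrane-bound protease, had 140, 347 and 408 in KO against 164, 200 and 243 in controls, and Fap, a serine protease of fibroblasts, had 191, 242 and 356 in KO against 159, 194 and 304 in controls. Among 15 transcription factors that act on collagen promoters, 9 had a higher and 6 a lower mean in KO, at a median of 0.03. Cebpb had 436, 257 and 279 in KO against 520, 390 and 354 in controls, and Rfx5 had 137, 90 and 76 in KO against 128, 130 and 99 in controls. The unadjusted limma p of Cebpb was 0.127 without and 0.00228 with the block (adjusted p = 0.2).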

How the data were processed

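RNA of 6 sorted smooth muscle samples was sequenced after low-input stranded total RNA library preparation from 5 ng, per the labels' protocols. Tools in the submitters' processing notes are STAR 2.6.1d, Trimmomatic 0.39, DESeq2 1.18.1 and, from Subread, featureCounts 1.6.5, with builds mm10 and GRCm38.p5. Not given in the sources used here are duplicate removal and the use of strand. The authors deposited 1 table of a score per gene and library: whole-number values that, from the spacing of the low ones, are read counts scaled by library. One read was worth 0.831, 0.9225 and 1.3975 in KO libraries and 0.755, 0.915 and 1.3265 in controls. From these steps depths were estimated, and rounding kept whole reads from being recovered. Rows of mitochondrially encoded genes numbered 0.

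Because the values are no raw counts, limma 3.58.1 (R 4.3.3) was fitted to log2(value + 1) with an intensity trend, 2-sided, on the 12735 genes with a mean of at least 10, with Benjamini-Hochberg adjustment over all of them and a threshold of 0.05. Fold changes understate the change of low genes. Whether the compressed upper end of the scale also shrinks the changes of abundant genes was not tested. The fit was tried on simulated libraries drawn independently, with no shared effect of library number, so its behaviour under such an effect was not checked. Lengths are merged exons of protein-coding transcripts in GENCODE M21; promoter windows are RefSeq's. Groups share replicate numbers 1 to 3. Deviations from group means correlated at 0.586, 0.31 and 0.444 for same-numbered libraries and at most 0.157 for others. Because deviations cancel within a group, high same-numbered values by themselves lower the others, which are no separate support. The numbers were taken to pair the libraries, a pairing that rests on the data and not on a label. Depth ran with the numbers in both groups, and its part in these correlations was not tested. Libraries of a group differed beyond counting noise, with chi-square values of 3.03 to 10.3 per degree of freedom.

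The members and lists were chosen with earlier results of these data known. Values in every library are given for the 3 most abundant members of each class, those with an unadjusted p under 0.05 with or without the block and the 2 with the smallest p of each class, and others where they help. From each pathway list the text names members with an unadjusted p under 0.05 and a mean of at least 50, or else the 2 with the smallest p. Sox9, whose values were all under 50, is named outside this rule. Added after seeing values were Itga1, Pdgfra, Dpp4, Pecam1, the other low members and the ratio Col4a5 over Col4a1. In all, 21 alternatives were tried, 2 of them chosen after seeing the data. Some genes of the family are not reported here. With 3 libraries against 3, an exact permutation test of 1 gene cannot go below 0.1, so none was run.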

Additional observations from a re-analysis of the deposited data

How the results depend on the processing

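Collagen genes past the adjusted threshold numbered 0 under every alternative that was run: other pseudocounts, filters, scalings, variance priors, sample weights, the replicate block, each library or number left out, and removal of a trend with level per kilobase, which was chosen after seeing the data. The smallest adjusted p of a named collagen gene in any of them was 0.0575, for Col4a6. Over all genes the number past the threshold, 0, became 1 with the replicate block, 1 with the replicate block and that trend removed, and 2 with sample quality weights. With libraries left out it ranged from 0 to 61, the highest in the blocked fit without number 1. Class medians of the log2 fold change ranged from -0.27 to 0.15 for fibrillar, -0.04 to 0.20 for basement membrane and -0.19 to 0.13 for other collagens with a library or number left out. The cause was not tested for any of the changes of sign that follow. With sample quality weights Col1a1 came to 0.06, Col1a2 to 0.026 and Col3a1 to 0.064 on the log2 scale, and with the level trend removed Col18a1 came to -0.006, with and without the replicate block. With a library or number left out, log2 fold changes ranged from -0.278 to 0.154 for Col1a1, -0.231 to 0.13 for Col1a2, -0.263 to 0.19 for Col3a1, -0.128 to 0.131 for Col18a1, -0.052 to 0.256 for Col4a1, -0.047 to 0.231 for Col4a2, -0.042 to 0.477 for Col6a1 and -0.069 to 0.419 for Col6a2. In the replicate block fits Col1a1 was 0.005 without number 1, and Col18a1 was -0.111 and Col6a2 -0.034 without number 2. Under the same omissions Col27a1 stayed between -0.441 and -0.246, Col4a5 between -0.738 and -0.238, Col4a6 between -1.475 and -0.427, Col20a1 between 0.288 and 0.629, Col19a1 between -1.261 and -0.217, Col14a1 between -0.932 and -0.076, Col6a3 between 0.014 and 0.409, Col6a4 between -1.735 and -0.191, Col2a1 between -5.895 and -0.578 and Col9a1 between -4.304 and -1.661. Depth and rounding limit the genes of few reads, such as the cartilage collagens.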
